A study of Mus musculus with 18 samples.

Results

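The genes of prostaglandin synthesis, inactivation and reception described here are 10 of the 55401 genes in a count table of mouse RNA-seq libraries. They were chosen by name, with earlier results of these data known. They are Pla2g4a, which encodes the phospholipase that frees arachidonate, the cyclooxygenase genes Ptgs1 and Ptgs2, the terminal synthase genes Ptges, Ptgis and Ptgds, the inactivating dehydrogenase gene Hpgd, and the receptor genes Ptger2, Ptger4 and Ptgfr. The libraries came from 18 cultures of mouse embryonic fibroblasts (MEFs), primary cells grown from minced mid-gestation embryos without head and viscera, in 2 series of 9 libraries. The S6K1 series held wild-type (WT) cells carrying an empty retrovirus (EV), WT cells carrying a retrovirus that expresses constitutively active HRAS (RAS) and cells lacking S6K1 (KO) with the same RAS virus, 3 libraries of each. The S6K1/S6K2 series likewise held 3 libraries of WT EV, 3 of WT RAS and 3 of RAS cells lacking both kinases (DKO). S6K1 and S6K2 are ribosomal S6 kinases that act below mTORC1, and RAS drives primary fibroblasts into senescence, so the design asks which transcripts change with RAS and whether loss of the kinases alters them in RAS cells.

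Every culture had been transduced with a retrovirus and selected with puromycin, the EV cultures included. Per the study's methods, S6K1 KO and WT cells came from littermate embryos, whereas DKO cells came from parents that both lacked S6K2 and their WT controls came from other mothers. No KO or DKO culture with EV was analysed here, so the RAS effect was measured in WT cells only. The labels give neither the time after transduction nor the sex or number of embryos behind a culture.

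Prostaglandins are lipid signals made from arachidonate, a fatty acid held in membrane phospholipids. Cytosolic phospholipase A2 releases it, a cyclooxygenase turns it into an unstable endoperoxide, and a terminal synthase converts that into prostaglandin E, prostacyclin or prostaglandin D. COX-1, the Ptgs1 product, is present in many tissues at rest, while COX-2, the Ptgs2 product, is induced by growth factors, oncogenes and inflammatory signals, and prostaglandin E from fibroblasts is a known mediator of inflammation and of senescent-cell secretion.

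Levels are given in CPM, counts divided by the scaled library size, with scaling within each series, and changes as log2 fold changes (log2FC) from the fitted model with their standard errors (SE). Libraries held 8319445 to 14402442 counts each, and the detection limit, set at 3 counts, stood for 0.209 to 0.357 CPM (counting error only). All 8 fibroblast marker genes were detected in every group, with a summed level from 29920 to 47720 CPM in the EV libraries and from 13210 to 17930 CPM in the RAS libraries. The genes of this list did not all move with their sum. In the S6K1 series the mean of Col1a1 was 12120 CPM in WT EV and 3242 CPM in WT RAS. That of Vim was 3978 CPM in WT EV and 5199 CPM in WT RAS. All 15 macrophage marker genes were also detected, with sums from 165 to 3407 CPM in WT EV, 182 to 3937 CPM in WT RAS, 257 to 907 CPM in KO RAS and 75.2 to 249 CPM in DKO RAS. The 8 endothelial markers summed to at most 37.6 CPM and the 6 mast cell markers to at most 0.972 CPM, the 6 smooth muscle markers to between 1222 and 7211 CPM, and the 6 epithelial markers summed to between 0.873 and 10.2 CPM in EV and between 68.1 and 195 CPM in RAS libraries. Replicate 1 of WT EV in the S6K1/S6K2 series stood apart from its group, with the highest macrophage sum there (1505 CPM against 165 and 218 CPM), and values without it are given beside the results it touches. The targeted gene Rps6kb1 was lower in KO RAS than in WT RAS cells (30.6 ± 6.75 against 69.0 ± 6.74 CPM, mean ± SD, n = 3) and in DKO RAS than in WT RAS cells (37.5 ± 2.698 against 80.6 ± 4.45 CPM), and Rps6kb2 was lower in DKO RAS cells (2.84 ± 0.186 against 25.8 ± 2.68 CPM), as labelled. Hras was higher in WT RAS than in WT EV cells in both series, by 0.93 (SE 0.14) and 0.75 (SE 0.15) on the log2 scale, with adjusted p-values of 0.00290 and 0.00568 in edgeR.

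The promoter windows of the genes whose transcripts rose in both series and that make prostaglandin H or prostaglandin E are shown, since these members moved together. RefSeq (GRCm38.p6) gave windows of 300 bases, 250 before and 50 after a listed start, for 9 of the 10 members, 10 windows in all. Positions count from the listed start as 0. The Ptgs2 window is chr1:150099781-150100080 on the plus strand, the Ptges window chr2:30903248-30903547 on the minus strand and the Ptgs1 window chr2:36230176-36230475 on the plus strand, each read 5′ to 3′ on the gene's strand. Capitals mark matches to 7 motifs searched on both strands.
Ptgs2: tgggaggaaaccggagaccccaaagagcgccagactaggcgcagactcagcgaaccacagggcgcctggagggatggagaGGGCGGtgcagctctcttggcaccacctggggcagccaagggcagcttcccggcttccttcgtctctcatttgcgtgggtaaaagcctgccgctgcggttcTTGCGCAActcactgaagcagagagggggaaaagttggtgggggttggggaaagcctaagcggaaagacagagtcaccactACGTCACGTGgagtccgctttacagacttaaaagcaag
Ptges: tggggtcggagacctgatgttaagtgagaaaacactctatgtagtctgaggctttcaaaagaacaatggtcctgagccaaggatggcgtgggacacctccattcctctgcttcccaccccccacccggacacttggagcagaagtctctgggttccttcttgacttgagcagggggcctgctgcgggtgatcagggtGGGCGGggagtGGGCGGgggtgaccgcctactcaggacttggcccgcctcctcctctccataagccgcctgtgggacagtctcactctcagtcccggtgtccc
Ptgs1: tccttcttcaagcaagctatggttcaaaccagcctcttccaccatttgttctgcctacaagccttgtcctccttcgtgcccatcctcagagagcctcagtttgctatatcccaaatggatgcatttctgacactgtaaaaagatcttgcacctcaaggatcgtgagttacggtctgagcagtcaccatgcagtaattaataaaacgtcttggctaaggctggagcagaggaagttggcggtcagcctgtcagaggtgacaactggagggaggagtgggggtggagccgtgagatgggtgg

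In the Ptgs2 window, the C/EBP pattern TTNNGCAA matched at -69 to -62 and the Sp1 pattern GGGCGG at -170 to -165. The CRE half-site TGACGT matched on the minus strand at 12 to 17 and overlapped the E-box CACGTG at 16 to 21. The Ptges window held 2 matches to GGGCGG, at -53 and -42, and the Ptgs1 window held none of the 7 motifs. Among 32851 windows of all genes, 7.51% held the CRE half-site, 10.8% the C/EBP pattern, 7.15% the E-box and 35.7% GGGCGG. Of the 10 member windows, 1, 2, 1 and 5 held these motifs, respectively. The AP-1 pattern TGANTCA was in 1 member window (7.81% of all windows), the kappaB pattern GGGNNTTCC in 0 (5.82%) and TATAA in 2 (24.9%). Pla2g4a and Ptgs2 are neighbours on chromosome 1, 139 kb apart, and Ptges, Ptgs1, Ptgis and Ptgds all lie on chromosome 2.

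The first comparison asked which of these transcripts differed between WT RAS and WT EV cells. Transcripts for both cyclooxygenases and for the inducible prostaglandin E synthase rose with RAS in both series. In the S6K1 series, 5 of the 9 members tested passed an adjusted p of 0.05 in edgeR's quasi-likelihood test, 4 of them higher (Ptges, Ptgs2, Ptgis and Ptgs1) and 1 lower (Ptgfr), while 13.2% of all 14036 genes tested passed, 7.15% higher and 6.09% lower. Of the 8 members tested in the S6K1/S6K2 series, 4 passed, all higher (Ptgs2, Ptges, Ptgs1 and Pla2g4a), beside 26.3% of 13881 genes, 13.5% higher and 12.7% lower. The median log2 fold change of the members tested was 0.56 in the S6K1 series and 0.71 in the S6K1/S6K2 series, against 0.0018 and -0.024 over all genes. WT EV and WT RAS libraries did not overlap for 5 of 9 members (30.9% of all genes) and 4 of 8 (42.5%). Because the members were chosen with earlier results of these data known, these counts and medians are descriptive and do not test the set. The same WT RAS libraries serve in the comparisons with KO and DKO cells further on.

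**Figure D1:**
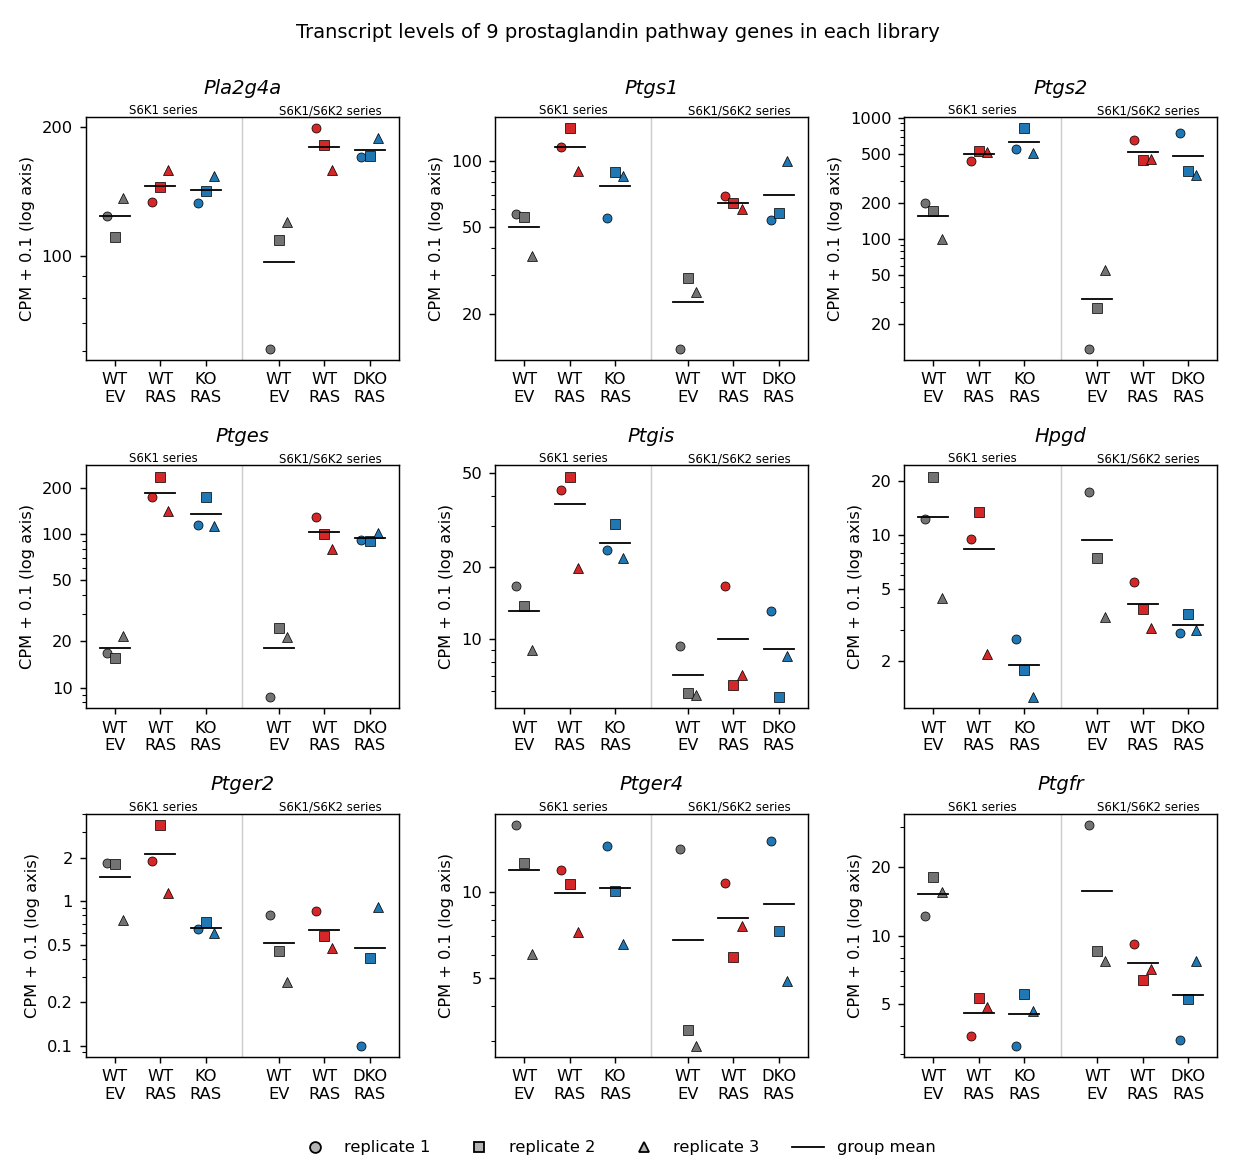
Level of 9 members in each library, as CPM + 0.1 on log axes with a different range in each panel, for the 6 groups of 3 libraries. Points are libraries, with the symbol giving the replicate number, and lines are group means. Ptgs1, Ptgs2 and Ptges lie higher in all WT RAS than in all WT EV libraries of both series, while KO RAS and DKO RAS libraries of Ptgs2, Ptges, Ptger4 and Ptgfr overlap those of WT RAS.

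Release of arachidonate was followed through Pla2g4a (ENSMUSG00000056220.14), which encodes the cytosolic phospholipase A2 that prefers arachidonate-bearing phospholipids. In the S6K1 series it had 124, 111 and 137 CPM in the 3 WT EV libraries and 134, 145 and 158 CPM in WT RAS. These groups overlapped, and the log2FC was 0.23 (SE 0.12, edgeR adjusted p 0.260, and 0.0438 with the replicate number as a block). Its levels in the S6K1/S6K2 series were 60.8, 109 and 119.9 CPM in WT EV and 199, 181 and 159 CPM in WT RAS. There all RAS libraries were above all EV libraries, by 0.89 (SE 0.22) on the log2 scale with an adjusted p of 0.0162 in edgeR. Without the low WT EV replicate 1 the value was 0.65 (adjusted p 0.00963), and without WT RAS replicate 2 it was 0.89 with an adjusted p of 0.0510.

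Ptgs2 (ENSMUSG00000032487.8), the inducible cyclooxygenase gene, had the highest mean level per kilobase of exon of all members in all groups except WT EV of the S6K1/S6K2 series, where the mean of Pla2g4a was higher and the libraries of both overlapped. Its levels in the S6K1 series were 197, 169 and 99.0 CPM in WT EV and 443, 529.8 and 522 CPM in WT RAS. The lowest RAS library was above the highest EV library, and the fitted increase was 3.21-fold (log2FC 1.68, SE 0.27, edgeR adjusted p 0.00351). The S6K1/S6K2 series had 12.3, 27.0 and 55.9 CPM in WT EV and 659, 452 and 453 CPM in WT RAS. This was a 16.4-fold increase (log2FC 4.04, SE 0.54, edgeR adjusted p 0.00100), and the log2FC was 3.65 without WT EV replicate 1, the lowest of the EV libraries, and 4.74 without WT EV replicate 3, the highest. The WT RAS means of the 2 series were 498 ± 48.1 and 521 ± 119 CPM and the WT EV means 155 ± 50.5 and 31.7 ± 22.2 CPM (mean ± SD, n = 3), each scaled within its own series. The difference between the RAS effects was 2.34 on the log2 scale (SE 0.60), with an edgeR adjusted p of 0.187 over the 18 libraries, 0.0911 with the block, 0.00184 without the filter on low counts and 0.0183 in DESeq2, so its call depended on the tool and the filter. Per the study's methods the 2 series came from different breedings, and series and batch cannot be told apart in this difference.

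Ptgs1 (ENSMUSG00000047250.13), the gene of the other cyclooxygenase, also rose. In the S6K1 series its level was 56.8, 55.3 and 36.5 CPM in WT EV and 115, 141 and 90.0 CPM in WT RAS, and in the S6K1/S6K2 series 13.7, 28.9 and 25.0 CPM in WT EV and 68.8, 64.0 and 60.2 CPM in WT RAS. The groups did not overlap in either series. The log2FC values were 1.22 (SE 0.25, edgeR adjusted p 0.0117) and 1.51 (SE 0.30, adjusted p 0.00573), or 2.33-fold and 2.85-fold. Without WT RAS replicate 2 the first was 1.06 with an adjusted p of 0.0511, and without WT EV replicate 1 the second was 1.25.

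Since both cyclooxygenases catalyse the same step, the share of Ptgs2 in their summed CPM per kilobase was computed. In the S6K1 series it was 76.5%, 74.2% and 71.8% in WT EV and 78.3%, 77.9% and 84.5% in WT RAS. It was 45.7%, 46.7% and 67.7% in WT EV and 90.0%, 86.9% and 87.6% in WT RAS of the S6K1/S6K2 series. Every RAS library thus had a higher share than every EV library of its series, with mean differences of 6.07 and 34.8 percentage points. Each gave a p of 0.1 in a two-sided exact permutation test, which is the smallest p that 3 against 3 allows. The difference in the S6K1 series was 3.94 points without WT RAS replicate 3, the lowest value with 1 library left out, and that in the S6K1/S6K2 series ran from 31.0 points (without WT EV replicate 1) to 42.0 points (without WT EV replicate 3).

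**Figure D2:**
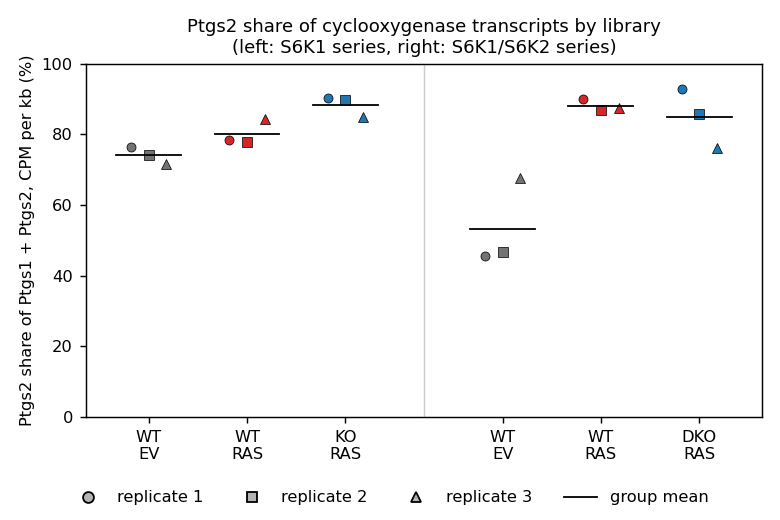
Share of Ptgs2 in the summed Ptgs1 and Ptgs2 level (CPM per kilobase of exon, in percent) in each library, with the S6K1 series on the left and the S6K1/S6K2 series on the right. Points are libraries and lines are means, which ran from 53.3% in WT EV of the S6K1/S6K2 series to 88.3% in S6K1 KO RAS.

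Among the terminal synthases, Ptges (ENSMUSG00000050737.13), which encodes the inducible microsomal prostaglandin E synthase, had the largest RAS effect of all members in the S6K1 series. Its level there was 16.8, 15.5 and 21.4 CPM in WT EV and 175, 237 and 141 CPM in WT RAS, an increase of 10.3-fold (log2FC 3.37, SE 0.26, edgeR adjusted p 0.000144). The S6K1/S6K2 series had 8.56, 24.2 and 21.2 CPM in WT EV and 129, 100.3 and 79.5 CPM in WT RAS, an increase of 5.71-fold (log2FC 2.51, SE 0.33, adjusted p 0.000959). EV and RAS libraries were far apart in both series. Leaving out 1 library at a time kept the log2 fold change between 3.16 and 3.53 in the S6K1 series and between 2.18 and 2.79 in the S6K1/S6K2 series. Taking the WT libraries with the same number together, Ptges was higher in RAS by between 3.74-fold and 15.3-fold in all 6 pairs.

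Ptgis (ENSMUSG00000017969.13), the prostacyclin synthase gene, rose in the S6K1 series only by the test used, and the difference between series did not pass (-0.99, SE 0.58, edgeR adjusted p 0.478). Its level was 16.6, 13.7 and 8.89 CPM in WT EV and 42.3, 48.3 and 19.8 CPM in WT RAS of the S6K1 series, with a log2FC of 1.49 (SE 0.34, adjusted p 0.0196). The groups did not overlap, but the call was lost without WT EV replicate 2, WT EV replicate 3, WT RAS replicate 1 or WT RAS replicate 2, with adjusted p-values from 0.0633 to 0.0795, and with the replicate block it stood at 1.45 (adjusted p 0.000262). Levels in the S6K1/S6K2 series were 9.26, 5.84 and 5.68 CPM in WT EV and 16.5, 6.31 and 6.95 CPM in WT RAS, and these groups overlapped (0.52, SE 0.43, adjusted p 0.398). RAS replicate 1 was high there, and without it the value was -0.060. Exons of Ptgis overlap those of 1110018N20Rik on the opposite strand. The counting strand is not stated in the sources used here, so some of these reads may belong to that gene. Ptgds, the lipocalin-type prostaglandin D synthase gene, had 0 to 2 counts in each of the 18 libraries, which is at or under the limit of 3 counts, and was tested in no comparison.

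Hpgd (ENSMUSG00000031613.9), which encodes the dehydrogenase that starts prostaglandin inactivation, had 12.2, 21.0 and 4.40 CPM in WT EV and 9.39, 13.4 and 2.09 CPM in WT RAS of the S6K1 series, and 17.2, 7.34 and 3.41 CPM in WT EV and 5.40, 3.81 and 2.97 CPM in WT RAS of the S6K1/S6K2 series. EV and RAS libraries overlapped in both series, although each RAS library was below the EV library of the same number. The log2FC values were -0.60 (SE 0.66, edgeR adjusted p 0.612) and -1.20 (SE 0.51, adjusted p 0.109). Leaving out 1 library at a time moved the first from -1.12 (without WT RAS replicate 2) to -0.0030 (without WT EV replicate 2). The second was -1.59 without WT EV replicate 3 (adjusted p 0.0171) and -0.41 without WT EV replicate 1 (adjusted p 0.491), so 1 library set its side of the threshold.

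Of the receptors, Ptgfr (ENSMUSG00000028036.6), the receptor gene for prostaglandin F, fell in the S6K1 series. It had 12.1, 18.1 and 15.5 CPM in WT EV and 3.50, 5.22 and 4.74 CPM in WT RAS, with a log2FC of -1.76 (SE 0.26, edgeR adjusted p 0.00243). The groups were well apart, and the fold was close to 0.3 in each pair of same-numbered WT libraries (0.289, 0.288 and 0.306). Levels in the S6K1/S6K2 series were 30.65, 8.49 and 7.60 CPM in WT EV and 9.08, 6.31 and 7.04 CPM in WT RAS. These groups overlapped, with a log2FC of -1.06 (SE 0.52, adjusted p 0.159) that shrank to -0.11 without the high WT EV replicate 1. The difference between the RAS effects of the series was 0.69 (SE 0.62, adjusted p 0.630), so a difference was not shown.

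Ptger2 and Ptger4 encode the EP2 and EP4 receptors, which bind prostaglandin E and raise cyclic AMP. Ptger4 (ENSMUSG00000039942.15) had 17.1, 12.6 and 5.96 CPM in WT EV and 11.9, 10.6 and 7.15 CPM in WT RAS of the S6K1 series, and 14.1, 3.18 and 2.797 CPM in WT EV and 10.7, 5.84 and 7.50 CPM in WT RAS of the S6K1/S6K2 series. Groups overlapped in both, with log2FC values of -0.28 (SE 0.40, edgeR adjusted p 0.710) and 0.26 (SE 0.63, adjusted p 0.788), and the second was 1.42 (adjusted p 0.0669) without WT EV replicate 1. Its exons overlap Gm15937 and Ttc33 on the opposite strand, so some of these reads may belong to those genes. Ptger2 (ENSMUSG00000037759.6) was close to the detection limit, at 1.74, 1.71 and 0.641 CPM in WT EV and 1.79, 3.27 and 1.04 CPM in WT RAS of the S6K1 series (7 to 42 counts), a log2FC of 0.56 (SE 0.48, adjusted p 0.507). The S6K1/S6K2 libraries had 0 to 9 counts of it, and it was not tested.

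**Figure D3:**
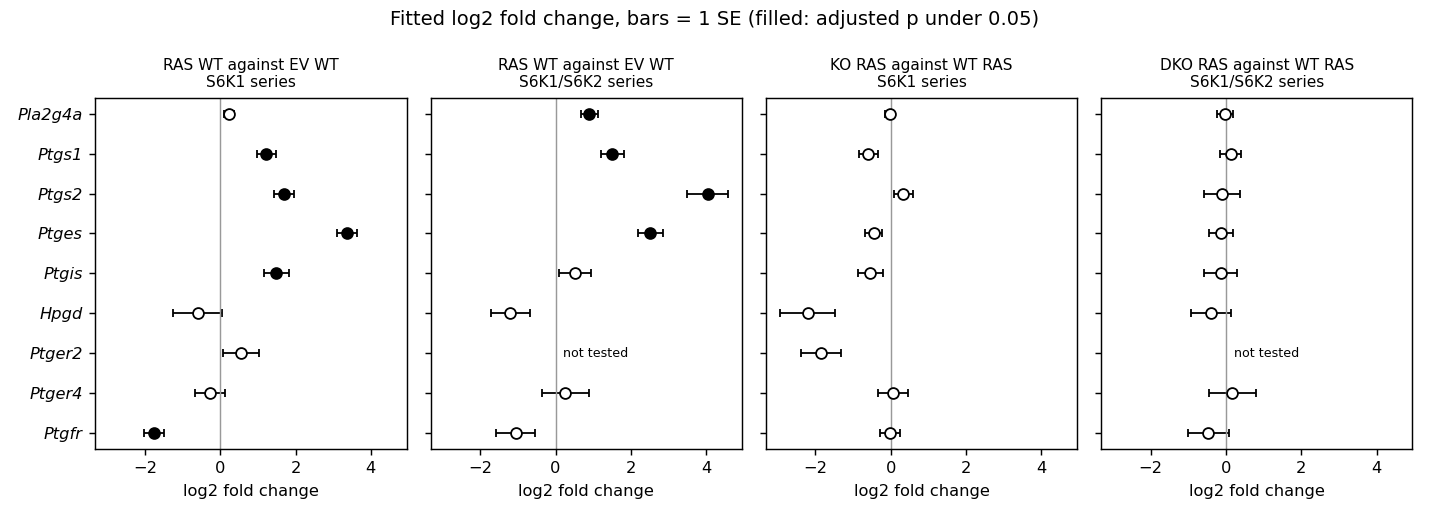
Fitted log2 fold change of each member (points) with its standard error (bars) in the 4 comparisons, filled where the adjusted p in edgeR was under 0.05. Filled points appear in the RAS comparisons alone, 5 in the S6K1 series and 4 in the S6K1/S6K2 series.

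The replicate number was taken to pair cultures of the same WT line, which no label states. With it as a block, 6 of 9 members passed in the S6K1 series (36.2% of all genes) and 4 of 8 in the S6K1/S6K2 series (28.7%). Pla2g4a was the member added. The block covered all 9 libraries of a series, so in the S6K1/S6K2 series it also tied DKO to WT libraries of the same number. For the difference between the 2 series' RAS effects, 0 of 9 members passed in edgeR, as did 0.0% of all genes, while 2 members had an unadjusted p under 0.05 (Ptgs2 and Pla2g4a) and 1 (Ptgs2) passed in DESeq2.

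Per kilobase of exon, the order of mean levels in WT RAS cells of the S6K1 series was Ptgs2 (120.2 CPM per kb), Ptges (46.9), Ptgs1 (29.7), Pla2g4a (22.8), Ptgis (14.3), Hpgd (4.82), Ptger4 (1.49), Ptgfr (1.03), Ptger2 (0.553) and Ptgds (0.0162). In WT EV cells of that series Ptgs2 (37.4 CPM per kb) was followed by Pla2g4a (19.4) and Ptgs1 (12.8), and Ptges (4.55) ranked below Hpgd (7.29) and Ptgis (5.08). Many neighbours in these orders had overlapping libraries and are not ordered beyond their spread. In WT RAS the libraries were apart between Ptgs2 and Ptges, between Pla2g4a and Ptgis and between Ptger2 and Ptgds. In WT EV they were apart between Ptgs2, Pla2g4a and Ptgs1 and, at the low end, between Ptgfr, Ptger4, Ptger2 and Ptgds. In the S6K1/S6K2 series the WT RAS order began with Ptgs2 (126 CPM per kb), Pla2g4a (28.1), Ptges (26.2) and Ptgs1 (16.6), and in WT EV cells with Pla2g4a (15.1), Ptgs2 (7.65) and Ptgs1 (5.80). There Pla2g4a and Ptges overlapped in WT RAS, as did Pla2g4a, Ptgs2 and Ptgs1 in WT EV, each with the next. The group means of the receptors stayed below 4 CPM per kb in all 6 groups. The highest Ptgfr library was at 7.03 CPM per kb in WT EV of the S6K1/S6K2 series.

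Over the 18 libraries, each centred on its series mean of log2 CPM, Pla2g4a, Ptgs1, Ptgs2 and Ptges varied together, with Pearson's r from 0.75 to 0.88 over their 6 pairs. It was 0.85 between Ptgs1 and Ptgs2, 0.87 between Ptgs1 and Ptges, 0.86 between Ptgs2 and Ptges and 0.88 between Pla2g4a and Ptgs2. Ptgis was less close to them, at 0.18 with Pla2g4a, 0.46 with Ptgs2, 0.52 with Ptgs1 and 0.63 with Ptges. Ptgfr ran opposite to Ptges (-0.83) and Ptgs2 (-0.73). Between Ptger4 and Ptges r was 0.0053. These values describe libraries that fall into an EV and a RAS cluster and share series and depth, and they carry no test. Among 10734 genes with a mean of at least 5 CPM, the patterns most like that of Ptgs2 were Msn, Adora2b and Axl (r from 0.983 to 0.986), those most like Ptges were Chrna1, Pgf and Ttyh1 (0.977 each), and those most like Ptgs1 were Tnfsf9, Rasa1 and Sdpr (0.923 to 0.954).

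Other genes of arachidonate metabolism were taken from 5 lists with 48 genes in all. With RAS, 6 of 35 tested rose and 4 fell in the S6K1 series, and in the S6K1/S6K2 series 9 of 36 rose and 2 fell, beside the shares of all genes given above. Their median log2 fold changes were 0.28 and 0.15. Akr1c18, an aldo-keto reductase known to act on progesterone and on prostaglandins, had the largest rise of the lists in both series. It had 0.209, 0.224 and 0.550 CPM in WT EV and 5.89, 4.59 and 11.7 CPM in WT RAS of the S6K1 series (log2FC 4.51, SE 0.49, edgeR adjusted p 0.000630), and 0.611, 0.265 and 0.787 CPM in WT EV and 13.9, 23.8 and 28.1 CPM in WT RAS of the S6K1/S6K2 series (5.28, SE 0.43, adjusted p 0.000111). Some of its EV libraries were at the limit of 3 counts, so these folds rest on few EV reads.

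Of the 13 genes of arachidonate release and supply, Acsl4, which loads arachidonate onto coenzyme A, rose in both series, by 0.98 (SE 0.16, edgeR adjusted p 0.00408) and 2.12 (SE 0.26, adjusted p 0.000629). It was 1 of 8 tested that rose in the S6K1 series, where 1 fell (Mgll, the monoacylglycerol lipase gene, -2.18, SE 0.41, adjusted p 0.00822). In the S6K1/S6K2 series 2 of 9 rose (Acsl4 and the phospholipase gene Pla2g6) and 1 fell (Plaat3, -1.48, SE 0.36, adjusted p 0.0158). Of the 8 other terminal prostanoid synthases, 2 rose in the S6K1 series (Akr1b8, 1.16, SE 0.16, adjusted p 0.00184, and Akr1b3, 0.55, SE 0.15, adjusted p 0.0447) and 1 in the S6K1/S6K2 series (Akr1b8, 1.76, SE 0.32, adjusted p 0.00406). Of the 6 genes of inactivation and transport, Akr1c18 was the 1 that rose in the S6K1 series, and it rose with the transporter genes Abcc4 and Slco2a1 in the S6K1/S6K2 series, while none fell in edgeR. Genes that rose thus came from the list of release and supply, the synthase list and the list of inactivation and transport.

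The receptor list held 9 genes, among them Ptgfrn, which encodes a receptor-binding protein. Of these, 6 were tested in each series. In the S6K1 series 3 fell with RAS and 0 rose, beside 6.09% and 7.15% of all genes. Tbxa2r, the thromboxane receptor gene, had 12.9, 14.2 and 7.05 CPM in WT EV and 1.71, 2.41 and 1.77 CPM in WT RAS (log2FC -2.53, SE 0.38, edgeR adjusted p 0.00260). Ptger1, which encodes the EP1 receptor for prostaglandin E, had 3.41, 4.17 and 4.31 CPM in WT EV and 1.28, 1.25 and 1.45 CPM in WT RAS (-1.57, SE 0.26, adjusted p 0.00416), and Ptgfrn, whose product binds the prostaglandin F receptor, was lower by 0.84 on the log2 scale (SE 0.18, adjusted p 0.0149). In the S6K1/S6K2 series 1 of 6 fell, Ptger1 (-1.27, SE 0.29, adjusted p 0.0114), and 1 rose, the nuclear receptor gene Ppard (0.53, SE 0.11, adjusted p 0.00645). Of all genes 12.7% fell and 13.5% rose there. Tbxa2r was at -2.10 there (SE 0.70, adjusted p 0.0501) with no overlap between the groups. Of the 6 genes tested, Ptger1 was thus the one that passed the threshold as lower in both series. Tbxa2r was also lower in both, without overlap, and narrowly missed the threshold in the second. The untested genes of this list are not covered by that comparison.

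**Figure D4:**
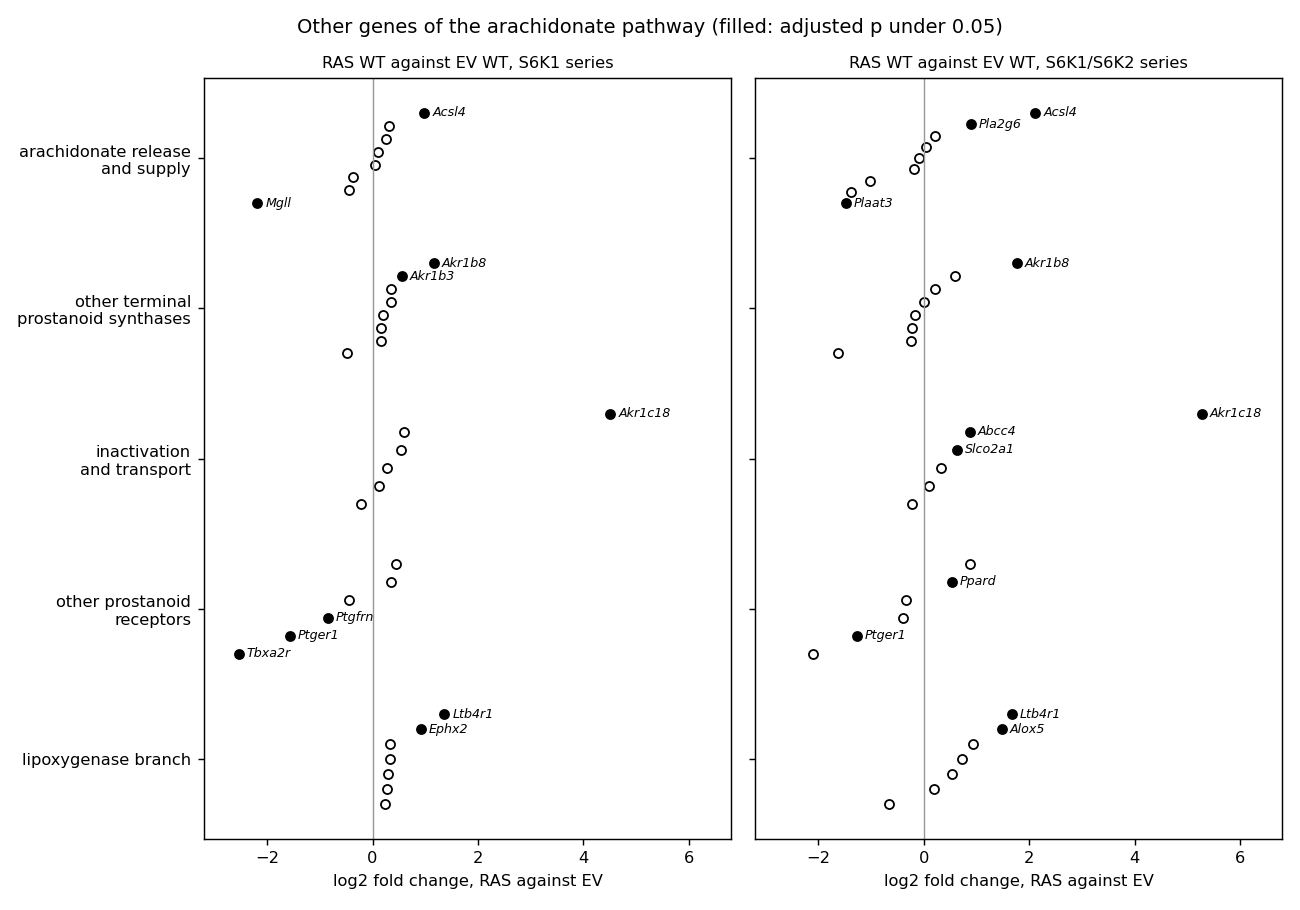
Log2 fold change between WT RAS and WT EV cells of the tested genes of 5 arachidonate pathway lists, with the S6K1 series on the left and the S6K1/S6K2 series on the right. Each point is a gene, and filled points with a name passed an adjusted p of 0.05 in edgeR. Akr1c18 lies farthest to the right in both panels, at 4.51 and 5.28.

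The second comparison asked whether loss of S6K1 altered these transcripts in RAS cells. In edgeR 0 of 9 members passed (0.00712% of all genes, which is 1 gene), as in DESeq2, while 3 had an unadjusted p under 0.05. The synthesis genes that rose with RAS had the following levels in KO RAS. Ptgs2 had 551, 822 and 514 CPM in KO RAS, with a log2FC from WT RAS of 0.34 (95% interval -0.25 to 0.92). Ptges had 114, 175 and 113 CPM (-0.46, interval -0.99 to 0.073) and Ptgis 23.65, 30.3 and 21.75 CPM (-0.54, interval -1.29 to 0.20). Pla2g4a, at 133, 142 and 154 CPM, was the tightest, with an interval from -0.30 to 0.24. Ptges was lower in 3 of 3 pairs of same-numbered KO and WT libraries (ratios of 0.655, 0.739 and 0.802). With the replicate block its log2FC was -0.46 (interval -0.85 to -0.068, edgeR adjusted p 0.206) and that of Ptgis -0.47 (interval -0.87 to -0.077, adjusted p 0.198), and neither passed over all genes.

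Ptgs1 was lower in all KO RAS libraries (54.6, 89.0 and 85.3 CPM) than in all WT RAS libraries, by 0.60 on the log2 scale (SE 0.25, unadjusted p 0.0373, edgeR adjusted p 0.664 and 0.142 with the block). The replicate values were uneven, with ratios of 0.474, 0.631 and 0.948 between same-numbered KO and WT libraries. The share of Ptgs2 in cyclooxygenase transcripts was 90.4%, 89.6% and 84.9% in KO RAS, above every WT RAS library, with a mean difference of 8.14 percentage points (two-sided exact permutation p 0.1, the smallest possible). KO RAS and WT RAS did not overlap for 2 of 9 members, Ptgs1 and Ptger2, beside 8.02% of all genes.

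With the replicate block, taken here to pair littermate cultures, 2 of 9 members passed, Hpgd and Ptger2, beside 4.15% of all genes, and both were lower in KO RAS. Hpgd had 2.55, 1.69 and 1.17 CPM in KO RAS against 9.39, 13.4 and 2.09 CPM in WT RAS, with log2FC values of -2.21 (SE 0.74, adjusted p 0.587) without the block and -2.11 (SE 0.32, adjusted p 0.00477) with it. The groups overlapped, but each KO library was below the WT library of its number. Ptger2 had 0.546, 0.613 and 0.5 CPM in KO RAS (6 to 8 counts) against 1.79, 3.27 and 1.04 CPM in WT RAS (13 to 42 counts), at -1.86 (SE 0.53, adjusted p 0.587) without and -1.83 (SE 0.37, adjusted p 0.0219) with the block. Both were lower in 3 of 3 pairs.

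The macrophage marker sum moved in the same direction. It was 3937, 3530 and 769 CPM in WT RAS and 907, 713 and 257 CPM in KO RAS, and in both groups replicate 3 was lowest, as it was for Hpgd. In WT RAS, however, the sum was highest in replicate 1 and Hpgd in replicate 2 (13.4 CPM, against 9.39 CPM in replicate 1). All 15 markers were above 3 counts in all these libraries. Of 35 pathway list genes tested, 0 passed in this comparison without the block, and with the block 5 were lower and 0 higher. These were Alox5ap (-2.44, SE 0.18, edgeR adjusted p 4.17e-05), Hpgds (-2.27, SE 0.18), Cysltr1 (-1.87, SE 0.41), Tbxas1 (-1.41, SE 0.16) and Plaat3 (-0.90, SE 0.13). Alox5ap, Hpgds, Tbxas1 and Cysltr1 are known from myeloid cells, where they serve leukotriene, prostaglandin D and thromboxane synthesis and leukotriene reception. Hpgds, for example, had 20.7, 15.4 and 5.14 CPM in WT RAS and 4.82, 2.61 and 1.17 CPM in KO RAS. In bulk RNA, fewer cells of a type and less RNA per cell cannot be told apart. The part of macrophage-marked cells in the values of Hpgd, Ptger2 and these list genes was not tested. Nor was it tested for the lower Ptgs1 level and the higher Ptgs2 share in KO RAS.

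**Figure D5:**
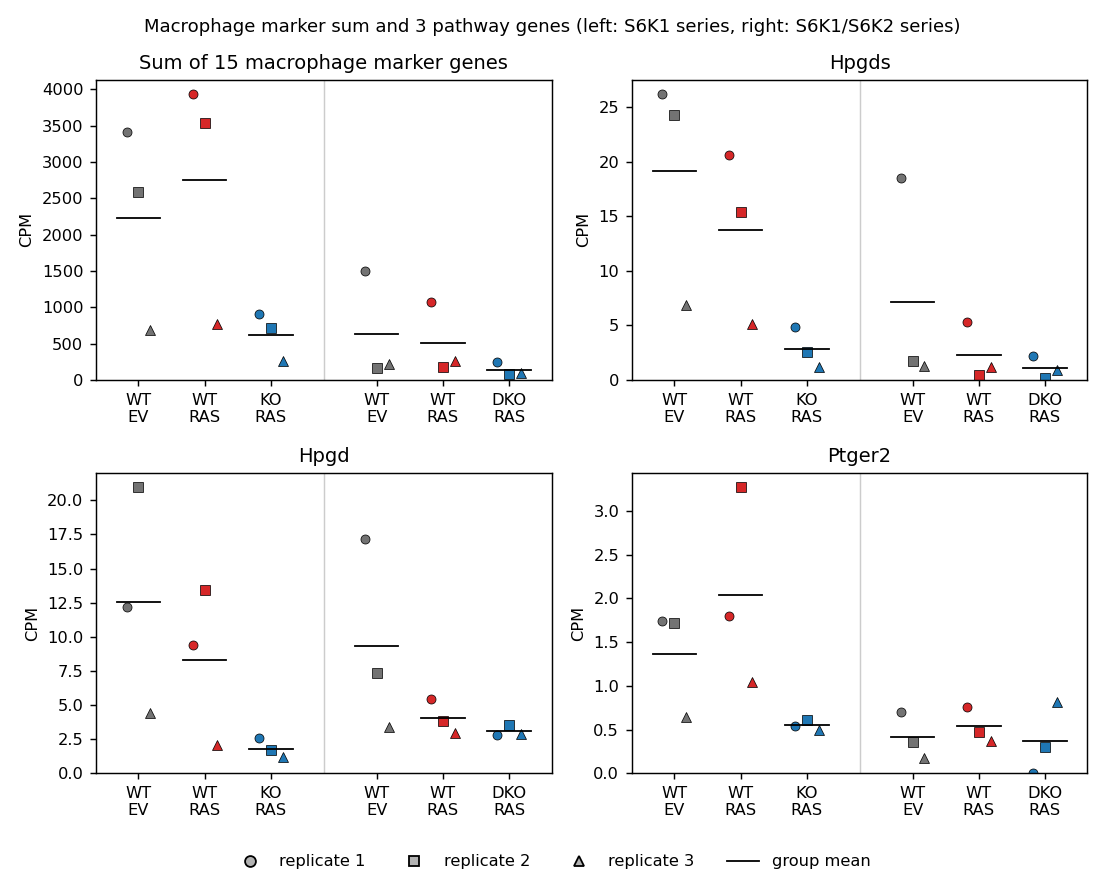
Summed level of 15 macrophage marker genes and the levels of Hpgds, Hpgd and Ptger2 in each library (CPM, linear axes from 0), with the S6K1 series on the left of each panel and the S6K1/S6K2 series on the right. Symbols give the replicate number and lines the group mean, and in the S6K1 series each KO RAS library lies below the WT RAS library of the same number in all 4 panels.

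The third comparison set DKO RAS against WT RAS cells. In edgeR 0 of 8 members passed (0.0216% of all genes, 3 genes), as in DESeq2, and 0 had an unadjusted p under 0.05. The groups overlapped for all 8, where 6.07% of all genes did not. Ptgs2 had 749, 366 and 339 CPM in DKO RAS (log2FC -0.10, 95% interval -1.16 to 0.95), Ptges 90.9, 90.1 and 101 CPM (-0.13, interval -0.82 to 0.56) and Ptgs1 53.3, 57.6 and 99.4 CPM (0.12, interval -0.51 to 0.76). Hpgd had 2.77, 3.55 and 2.89 CPM against 5.40, 3.81 and 2.97 CPM in WT RAS (-0.40, interval -1.57 to 0.77). Ptgfr had 3.37, 5.17 and 7.67 CPM (-0.46, interval -1.66 to 0.73), Ptger4 15.1, 7.20 and 4.78 CPM (0.17, interval -1.23 to 1.57), Pla2g4a 169.9, 171 and 188 CPM (-0.026, interval -0.51 to 0.46) and Ptgis 12.98, 5.58 and 8.39 CPM (-0.14, interval -1.10 to 0.81).

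The Ptgs2 share was 92.9%, 85.6% and 76.2% in DKO RAS, 3.22 percentage points below WT RAS on average (two-sided exact permutation p 0.7), and it was 1.14 points above without DKO RAS replicate 3. The macrophage marker sum was 249, 75.2 and 99.99 CPM in DKO RAS against 1072, 182 and 265 CPM in WT RAS. Of 36 list genes 0 passed, with or without the block. The loss effects of the 2 series differed for 0 of 9 members in edgeR (0.0069% of all genes, 1 gene) and 0 in DESeq2, and 0 had an unadjusted p under 0.05. The median log2 fold change was -0.46 over the 9 members tested with S6K1 loss and -0.12 over the 8 tested with loss of both kinases. Over all genes it was 0.031 and -0.00029. The 2 member medians cover different sets, since Ptger2 was tested in the S6K1 series only.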

How the data were processed

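The submitters deposited raw counts per gene for 18 libraries of poly(A) RNA, 3 in each of 6 groups given by the labels, and every column was used (0 left out). The sources differ on how the deposited counts were made. The study's methods name the TruSeq Stranded mRNA kit, single-end reads of 50 bases, CASAVA, TopHat, the mm9 genome and HTSeq, whereas the submitters' processing notes name CASAVA, STAR 2.7.1a, DESeq2 1.28.1 and mm10. The strand setting of the counting is not given in the sources used here. Reads carry no molecular identifiers, so detection limits (3 counts) cover counting error only. Replicates differed by at least 7.98 in chi-square per degree of freedom, so none was counted as a duplicate. The study's methods state that MEFs came from embryos of different mothers, so p-values measure the spread between such cultures.

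Counts were tested in R 4.3.3 with edgeR 4.0.16 (quasi-likelihood, two-sided, TMM scaling, filterByExpr with a minimum count of 10), each series over its 9 libraries, with Benjamini-Hochberg adjustment over all genes and a threshold of 0.05. Differences between series used all 18 libraries. CPM were computed with TMM-scaled library sizes within each series. The script was tested on simulated data. Symbols and exon lengths came from GENCODE for NCBIM37, for 32589 identifiers holding 99.1% of counts, and starts and promoter windows from RefSeq GRCm38.p6. The members and lists were chosen with earlier results of these data known. Named genes are the members, the 3 highest and 3 lowest list genes that passed in each RAS comparison, those that passed in the loss comparisons, Rps6kb1, Rps6kb2, Hras, and the 3 genes most like Ptgs1, Ptgs2 and Ptges over 18 libraries (log2 of CPM + 0.5). Akr1b3, Ptgfrn, Pla2g6, Abcc4, Slco2a1, Ppard, Ephx2, Alox5 and the list genes lower with S6K1 loss under the block were named after their values were seen.

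Replicate numbers were taken to pair EV and RAS cultures of a WT line and S6K1 WT and KO littermates. Deviations from group means of same-numbered libraries correlated at 0.706, 0.466 and 0.669 (S6K1 RAS comparison), 0.403, 0.314 and 0.324 (S6K1/S6K2 RAS comparison) and 0.722, 0.418 and 0.632 (KO comparison). Alternatives were the replicate block, DESeq2 1.42.0, its size factors, no filter, a filter of 10 counts in all libraries, 6 or 18 libraries in the fit, shares without division by exon length, and leaving out each library.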

Additional observations from a re-analysis of the deposited data

How the results depend on the processing

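Of 448 log2 fold changes of members recomputed under other settings, 414 kept their direction and their side of the threshold, 6 passed it newly, 6 no longer passed and 22 changed sign, all 22 where 1 library was left out. With the replicate block, 6 rather than 5 members passed for RAS in the S6K1 series (5085 against 1859 of all genes) and 2 rather than 0 for S6K1 loss (583 against 1 of all genes). The block changed no other call on a member, and Pla2g4a, Hpgd and Ptger2 were the calls it added. Per the study's methods DKO and WT cells came from different mothers, so their same-numbered libraries were not taken as pairs. Those libraries correlated at 0.301, 0.491 and -0.024, against 0.403, 0.314 and 0.324 in the RAS comparison of that series. For DKO against WT RAS 0 members passed with the block. For the difference between the RAS effects, DESeq2 and the fit without a filter called 1 member (Ptgs2) each, against 0. Without a filter, 6 rather than 4 members passed for RAS in the S6K1/S6K2 series, with Hpgd (-1.19, adjusted p 0.0373 in edgeR) and Ptgfr (-1.05, adjusted p 0.0479) added. A fit of the 6 WT libraries of that series with the block, chosen after seeing the data, called 4. For the DESeq2, unfiltered and 6-library fits the share of all genes that passed is not given here. Their counts are therefore not read as results about the members.

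Leaving out 1 library at a time gave 3 to 5 members called for RAS in each series, with 3 of 9 in the S6K1 series without WT RAS replicate 2, where Ptgs1 and Ptgis were lost. The share of all genes that passed in these fits is not given here either. Ranges that crossed 0 for RAS were -0.59 to 0.071 for Ptger4 in the S6K1 series, and -0.060 to 0.78 for Ptgis and -0.096 to 1.42 for Ptger4 in the S6K1/S6K2 series. With S6K1 loss they were -0.084 to 0.040 for Pla2g4a, -0.27 to 0.30 for Ptger4 and -0.21 to 0.15 for Ptgfr. With loss of both kinases they were -0.11 to 0.053 for Pla2g4a, -0.21 to 0.29 for Ptgs1, -0.56 to 0.10 for Ptgs2, -0.29 to 0.066 for Ptges, -0.50 to 0.44 for Ptgis and -0.42 to 0.48 for Ptger4, and the Ptgs2 share difference ran from -7.23 to 1.14 percentage points. None of these values passed the test. The causes were not tested. With 3 libraries a group the exact test of a share cannot go below 0.1, and depth limits Ptger2 and Ptgds.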

Other observations

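The lipoxygenase branch, which turns arachidonate into leukotrienes and related lipids, was measured beside the prostaglandin genes. Of its 12 listed genes 7 were tested in each series, and 2 rose and 0 fell with RAS in each, where 7.15% of all genes rose and 6.09% fell in the S6K1 series and 13.5% and 12.7% in the S6K1/S6K2 series. Ltb4r1, a leukotriene B receptor gene, rose in both series, from 1.25, 0.596 and 0.825 CPM in WT EV to 2.31, 2.34 and 2.33 CPM in WT RAS of the S6K1 series (log2FC 1.36, SE 0.32, edgeR adjusted p 0.0219) and by 1.67 (SE 0.44, adjusted p 0.0222) in the S6K1/S6K2 series. Alox5, the 5-lipoxygenase gene, had 1.40, 0.884 and 2.27 CPM in WT EV and 5.19, 3.10 and 4.45 CPM in WT RAS of the S6K1/S6K2 series (1.48, SE 0.39, adjusted p 0.0204). In the S6K1 series Alox5 had 8.84, 11.5 and 3.76 CPM in WT EV and 10.5, 13.3 and 5.46 CPM in WT RAS, and those groups overlapped. Ephx2, the soluble epoxide hydrolase gene, rose in the S6K1 series (0.92, SE 0.24, adjusted p 0.0335). Ltb4r1 stayed under 3 CPM in every library.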
